A study of Mus musculus with 8 samples.

Results

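The genes described here are AP-1 transcription factor subunits and other immediate early genes in the mouse geniculate ganglion, a cranial ganglion with the cell bodies of taste neurons. They were chosen by symbol from a list of 10 names (Fos, Fosb, Fosl2, Jun, Junb, Jund, Ier2, Dusp1, Arc and Nr4a1). Of these, 9 have a row among the 15110 genes of the deposited table, and all 9 were tested. Fosb has none and was not analysed here. Total RNA of whole ganglia from adult C57Bl/6 mice was sequenced in 4 wild type (Egr4+/+) and 4 knockout (Egr4-/-) libraries, each from a separate mouse, with a RIN above 8 required by the labels' protocols. The labels do not say which part of Egr4 was removed or how long the ganglia took to dissect.

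Immediate early genes are transcribed within minutes of a stimulus without the need for new protein, and in neurons their transcripts are used as a sign of recent activity. The same genes respond to injury, handling and dissociation of tissue in many cell types. AP-1 is a dimer of basic leucine zipper proteins: Fos proteins must pair with a Jun protein to bind DNA, while Jun proteins can also pair with each other. Egr4, the gene removed in these mice, is itself a member of another immediate early family, the zinc finger proteins of the early growth response (EGR) group.

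Total counts ran from 30849310 in wild type library 2 to 54255872 in knockout library 3. Egr4 stood at 1.54, 3.14, 0.925 and 3.24 CPM (counts scaled to library size) in wild type libraries 1 to 4 and at 0.444, 1.22, 0.940 and 1.05 CPM in knockout libraries 1 to 4, so the groups overlapped. All 15 pan-neuronal markers, among them the ATP receptor subunits P2rx2 and P2rx3, were detected in every library. Their summed level ran from 7019 to 16046 CPM in wild type and from 6287 to 16224 CPM in knockout ganglia. Other tissue differed between libraries. The 7 measured skeletal muscle markers, of which 1 was at 0 in some library, summed to between 9.57 and 53.4 CPM in 7 libraries but to 1497 CPM in knockout library 4. The 10 vessel markers summed to between 247 and 403.5 CPM in 7 libraries but to 1698 CPM in knockout library 2. The 9 neutrophil and marrow markers ran from 296 to 3732 CPM in wild type and from 116 to 1443 CPM in knockout ganglia. In whole ganglia fewer cells of a type and less RNA per cell cannot be told apart.

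The stretches upstream of 5 of the genes are shown, chosen among those with a match to the motifs searched. Each is the 150 bases before the RefSeq start (build GRCm38.p6, 5′ to 3′ on the gene's strand), with matches to the motifs searched in capitals. They lie at chr12:85473740-85473889 (+) for Fos, chr4:95052223-95052372 (-) for Jun, chr17:26508473-26508622 (-) for Dusp1, chr15:101266696-101266845 (+) for Nr4a1 and chr5:32136322-32136471 (+) for Fosl2.
Fos: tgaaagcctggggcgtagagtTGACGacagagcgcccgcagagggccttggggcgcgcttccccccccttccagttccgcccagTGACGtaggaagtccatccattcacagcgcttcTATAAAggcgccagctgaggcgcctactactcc
Jun: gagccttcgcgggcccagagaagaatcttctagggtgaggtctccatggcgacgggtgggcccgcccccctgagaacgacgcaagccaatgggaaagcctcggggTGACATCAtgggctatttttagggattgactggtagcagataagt
Dusp1: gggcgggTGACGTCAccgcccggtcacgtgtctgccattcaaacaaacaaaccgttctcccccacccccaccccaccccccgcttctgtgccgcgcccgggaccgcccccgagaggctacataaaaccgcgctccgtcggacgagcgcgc
Nr4a1: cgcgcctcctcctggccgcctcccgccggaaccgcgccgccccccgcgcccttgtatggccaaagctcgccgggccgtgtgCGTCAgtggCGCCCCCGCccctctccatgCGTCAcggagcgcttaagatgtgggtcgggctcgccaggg
Fosl2: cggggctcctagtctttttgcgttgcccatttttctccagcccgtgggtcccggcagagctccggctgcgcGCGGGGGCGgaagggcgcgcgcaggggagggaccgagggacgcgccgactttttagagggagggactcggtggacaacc

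The motifs searched on both strands were the cyclic AMP response element TGACGTCA, its core TGACG, the AP-1 site TGANTCA, the Jun-type site TGACATCA, the EGR site GCGNGGGCG and the TATA box TATAAA, and TGACG lies inside TGACGTCA. RefSeq windows were found for 8 of the 10 names, Fosb included. The window of Jund held no match, and those of Fosb and Junb held matches but are not shown. The core TGACG was in 5 of these 8 windows (Fos, Fosb, Junb, Dusp1 and Nr4a1), and in 13.5% of 27025 windows of the same length over all genes. Fos had it 129 and 66 bases before its start, with a TATA box at 33. Dusp1 had the full TGACGTCA at 143 bases, a sequence in 1.44% of all windows. Jun had TGACATCA at 45 bases, where 2.41% of all windows have it. The EGR site was in 3 of the 8 windows (Fosl2 at 79 bases, Nr4a1 at 60 and Fosb at 50) and in 3.79% of all windows. TGANTCA was in 0 of the 8 and in 4.27% of all windows. These matches describe letters in a window and do not show binding.

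Per transcript length, Jund was the most abundant of the genes and Fosl2 the least. In deposited FPKM (fragments scaled to transcript length and library size), means over the 8 libraries were 58.6 for Jund, 50.6 for Dusp1, 21.8 for Jun, 17.2 for Nr4a1, 13.8 for Ier2, 10.2 for Junb, 5.64 for Fos, 4.66 for Arc and 0.811 for Fosl2. Jund lay at the 89.1th percentile of all genes by mean FPKM, Fos at the 46.9th and Fosl2 at the 12.4th. Of the neighbours in this order, only Dusp1, at 35.7 FPKM or more, and Jun, below that in every library, had ranges that did not overlap. Arc was above Fosl2 in all 8 libraries although their ranges touched, and the other 6 neighbouring pairs kept the order in 6 or 7 of 8 libraries. Jund, known for steady expression in resting cells, had the highest FPKM of the 3 Jun genes in every library, at 1.48 to 3.99 times the FPKM of Jun within a library. Fos, the inducible partner, stood at 0.173 to 0.483 times Jun.

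**Figure D1:**
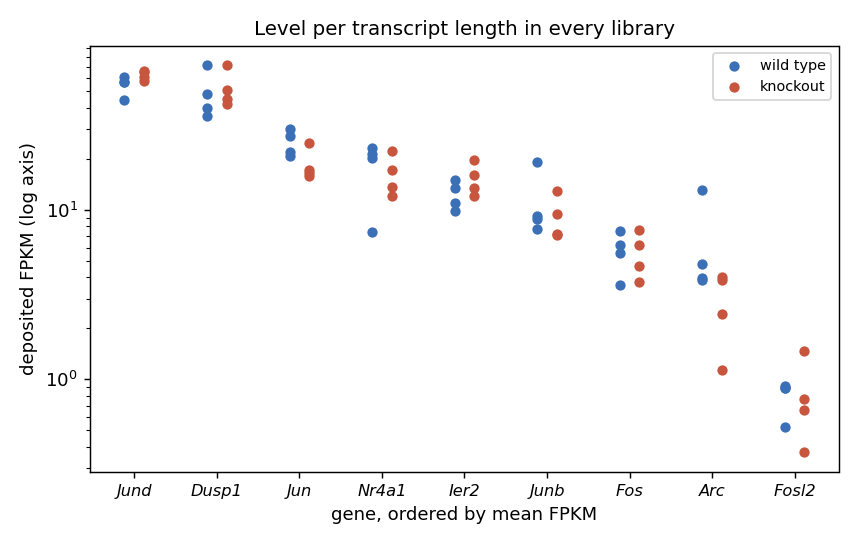
Deposited FPKM (log axis) of the 9 genes in each of 4 wild type (blue) and 4 knockout (red) libraries, ordered by mean. Jund and Dusp1 stand above the rest at 35.7 FPKM or more, and Fosl2 lies lowest at 0.372 to 1.46 FPKM.

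None of the 9 genes passed the test between knockout and wild type ganglia. By edgeR's quasi-likelihood test over the whole table, 0 of 9 were called at an adjusted p of 0.05, against 0.00662% of all 15110 genes, and the smallest adjusted p among them was 0.924. DESeq2, limma-voom and edgeR's likelihood ratio test likewise called 0 of 9. At an unadjusted p under 0.05 there was 1 of the 9, Arc, where the share over all genes was 4.84%. Levels overlapped between genotypes for all 9, while 2.62% of all genes had groups that did not overlap (1.21% with the knockout higher). Of the log2 fold changes, 4 were positive and 5 negative, beside 51.3% and 48.7% of all genes, with a median of -0.04 beside 0.01 over all genes. The 95% intervals of 6 genes (Fos, Jun, Jund, Ier2, Dusp1 and Nr4a1) lay within 1 log2 unit of 0, and those of Fosl2, Junb and Arc reached further. In the authors' deposited table the false discovery rates of the 9 ran from 0.903 to 0.998.

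**Figure D2:**
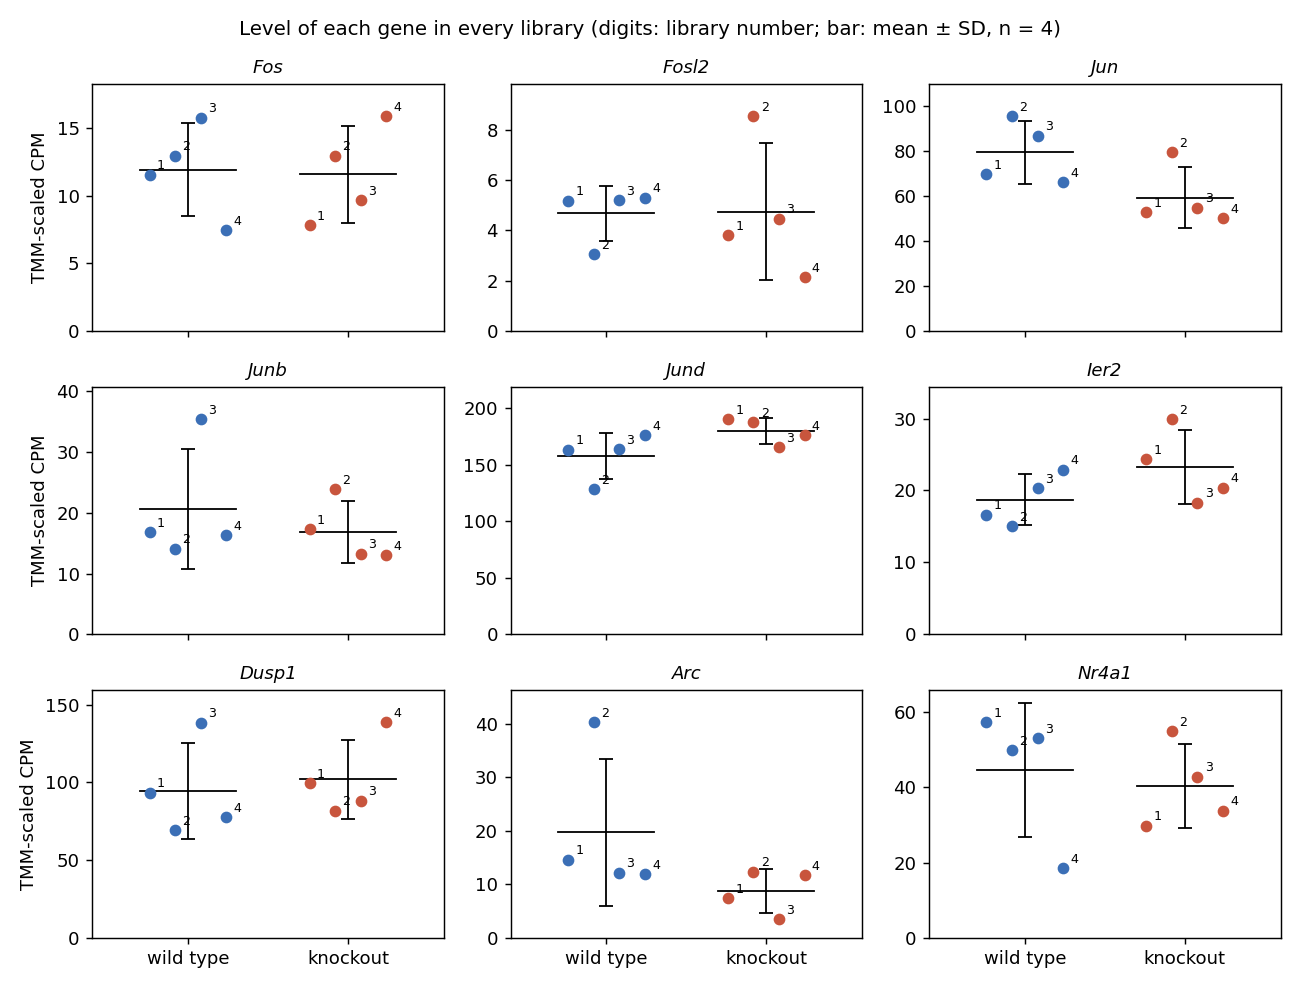
TMM-scaled CPM of each gene in the 4 wild type (blue) and 4 knockout (red) libraries, with library numbers beside the points and the mean ± SD as a black bar; axes start at 0. The genotypes overlap in every panel, and Arc in wild type library 2 (40.2 CPM) and Junb in wild type library 3 (35.4 CPM) stand far above their groups.

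Fos (chromosome 12, 85473901 to 85477270, 4 merged exons, mm10) encodes the inducible AP-1 subunit most used as a mark of neuronal activity. It had 562, 417, 733 and 337 counts in wild type libraries 1 to 4 and 369, 554, 525 and 685 in knockout libraries 1 to 4, or 11.6, 12.96, 15.8 and 7.47 CPM against 7.81, 12.97, 9.68 and 15.9 CPM. Both genotypes thus covered the same range, with wild type library 3 and knockout library 4 highest and wild type library 4 lowest. The means were 11.9 ± 3.45 and 11.6 ± 3.58 CPM (SD, n = 4 each), and the log2 fold change was -0.04 (95% interval -0.74 to 0.65, exact permutation p = 1). It was -0.41 without library 4 of both genotypes and -0.45 without knockout libraries 2 and 4, both uncalled and chosen after seeing the data. The knockout library with the most Fos was the one with 1497 CPM of muscle markers, and the part of muscle RNA in the Fos level was not tested. Wild type library 3, with nearly the same Fos level, held 50.0 CPM of these markers.

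Fosl2 (chromosome 5, 32136472 to 32157839, 4 merged exons), a Fos relative without the strong activation domain of Fos, had 92 to 365 counts over its 5863 bases of exon. It stood at 5.18, 3.04, 5.20 and 5.30 CPM in wild type and at 3.81, 8.54, 4.46 and 2.14 CPM in knockout ganglia. Knockout library 2 was the highest and knockout library 4 the lowest of all 8. The log2 fold change was 0.02 (95% interval -1.002 to 1.03), so no difference was detectable at this precision. It was -0.44 without knockout library 2, the library with 1698 CPM of vessel markers, and the part of vessel RNA was not tested.

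None of the 3 Jun genes passed the test. Jun (chromosome 4, 95049036 to 95052222, 1 exon), the founding Jun subunit and a gene that sensory neurons raise after axon injury, stood at 69.6, 95.6, 86.8 and 66.2 CPM in wild type and at 52.8, 79.3, 54.9 and 50.2 CPM in knockout ganglia. Knockout libraries 1, 3 and 4 lay below every wild type library, and knockout library 2 lay among them. The means were 79.5 ± 13.97 and 59.3 ± 13.5 CPM (SD, n = 4 each). On the log2 scale the difference was -0.42 (95% interval -0.86 to 0.01). Its adjusted p from edgeR was 0.924 and the exact permutation p was 0.0857, where the smallest p that 4 against 4 libraries allow is 0.0286. With 1 library left out its log2 fold change ran from -0.60 without knockout library 2 (edgeR's unadjusted p = 0.00753, adjusted p = 0.679) to -0.32 without wild type library 2 (unadjusted p = 0.161, adjusted p = 1.000). Jun shares 232 exon bases with the antisense gene Junos, whose reads cannot be told apart from its own.

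Jund (chromosome 8, 70697739 to 70700616, 1 exon) is the Jun gene with the highest level. It stood at 163, 128, 163 and 176 CPM in wild type and at 190, 187, 165 and 176 CPM in knockout ganglia, which is 0.19 on the log2 scale (95% interval -0.13 to 0.51, exact permutation p = 0.0857). Wild type library 2 was the lowest of the 8 and knockout libraries 1 and 2 the highest. Without wild type library 2 the value was 0.10. Jund varied the least of the 9 genes, its SD of log2 CPM over the 8 libraries (0.18) lying at the 6.30th percentile of all genes. It shares 877 exon bases with the antisense gene Gm11175. The log2 ratio of Jun to Jund FPKM, a ratio chosen after the values were seen, was -1.14 ± 0.433 (SD, n = 4) in wild type ganglia and -1.77 ± 0.278 (SD, n = 4) in knockouts. It ran from -1.56 to -0.57 in wild type and from -1.99 to -1.39 in knockout ganglia, so the groups overlapped (exact permutation p = 0.0571, two-sided).

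Junb (chromosome 8, 84976909 to 84978748), a Jun protein that restrains Jun in several settings, was set apart by 1 library. It stood at 16.9, 14.1, 35.4 and 16.3 CPM in wild type and at 17.4, 23.9, 13.3 and 13.02 CPM in knockout ganglia. Without wild type library 3, its log2 fold change of -0.29 ± 0.34 (SE) became 0.097. Socs3, a cytokine-induced inhibitor of signalling, was also highest in wild type library 3, at 42.3 CPM against 17.2 CPM or less in the other libraries. The neutrophil and marrow markers summed to 1648 CPM there, below the 3732 CPM of wild type library 4, in which Junb was at 16.3 CPM. The 8 macrophage markers summed to 819 CPM there, below the 888 CPM of knockout library 2, which was second highest in Junb. The part of these cells in the Junb level was not tested.

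Ier2 (chromosome 8, 84661331 to 84662852, 1 exon), a small nuclear protein named for its early response, stood at 16.7, 15.01, 20.3 and 22.9 CPM in wild type and at 24.3, 29.9, 18.3 and 20.4 CPM in knockout ganglia. The 2 highest libraries were knockouts and the 2 lowest wild type, with the other 4 interleaved. Its log2 fold change was 0.31 (95% interval -0.20 to 0.82, exact permutation p = 0.200), and 0.16 without knockout library 2. Dusp1 (chromosome 17, 26505591 to 26508472, 4 merged exons) encodes a phosphatase that switches off the MAP kinases which induce these genes. It stood at 93.4, 69.3, 138 and 77.5 CPM in wild type and at 99.3, 81.8, 88.1 and 139 CPM in knockout ganglia, so 1 library of each genotype was about as high as the other. Its log2 fold change was 0.11 (95% interval -0.44 to 0.66). The 2 libraries high in Dusp1, wild type 3 and knockout 4, were also the 2 highest in Fos, and knockout library 4 is the one with the muscle RNA.

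Nr4a1 (chromosome 15, 101266846 to 101274794, 7 merged exons), an orphan nuclear receptor induced by activity and by immune signals, was low in wild type library 4. It stood at 57.3, 49.8, 53.1 and 18.4 CPM in wild type and at 29.8, 54.9, 42.8 and 33.8 CPM in knockout ganglia. The knockout libraries lay between these wild type extremes. The log2 fold change was -0.15 (95% interval -0.90 to 0.60), so no difference was detectable at this precision. With 1 library left out it ran from -0.41 without wild type library 4 (edgeR's unadjusted p = 0.107) to -0.0038 without wild type library 1.

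Arc (chromosome 15, 74669081 to 74672570, 3 merged exons), a cytoskeleton-associated protein of synapses and the most neuronal of these genes, had the largest fold change and rested on 1 library. It stood at 14.6, 40.2, 12.1 and 11.8 CPM in wild type and at 7.39, 12.3, 3.43 and 11.7 CPM in knockout ganglia. Wild type library 2 had the most of the 8, and knockout library 3 the lowest. The means were 19.7 ± 13.8 and 8.71 ± 4.14 CPM (SD, n = 4 each), and the log2 fold change was -1.18 (95% interval -2.30 to -0.05). In edgeR's test the unadjusted p was 0.0415 and the adjusted p 0.924, and the exact permutation p was 0.114. Without wild type library 2 the log2 fold change was -0.55 with an unadjusted p of 0.229 in edgeR's fit. That p also rose above 0.05 without knockout library 1 (0.0932, log2 fold change -1.09) or knockout library 3 (0.0897, log2 fold change -0.91), and with sex class as a covariate (0.0880). Arc varied the most of the 9 genes, its SD of log2 CPM (0.98) lying at the 85.4th percentile of all genes.

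The library with the high Arc was also far above the others in 2 near-identical HSP70 genes, among the 17 heat shock genes listed. Hspa1b, an inducible HSP70 chaperone, stood at 52.6 CPM in wild type library 2 and at 12.1 to 17.3 CPM in the other 7 libraries. Its near-identical copy Hspa1a stood at 41.7 CPM there and at 9.48 to 16.9 CPM elsewhere, and reads may be split between the copies. Dnajb1, a cochaperone of the same list, was highest of the 8 there at 125 CPM, followed by 114 CPM in wild type library 4. Hspe1, a mitochondrial cochaperone of that list, was lowest of the 8 there at 48.4 CPM. Levels of the rest of the list in this library are not given here. Hspa1a also shares 564 exon bases with Gm20481 on the other strand. Among the 9 genes, Jun was also highest in that library, and Jund, Ier2 and Dusp1 were lowest there. Of the EGR genes, Egr3 was highest there at 3.20 CPM against 0.886 to 1.5 CPM elsewhere, and Egr1 stood at 36.3 CPM, second to knockout library 2 at 38.1 CPM. Egr2 was not high there: it stood at 63.4 CPM, where the 8 libraries ran from 44.5 to 135 CPM. Egr3 and Egr1 were picked after their values were seen. It was the most shallow library, at 30849310 counts, and had the highest summed central glia markers (4592 CPM), though wild type library 1 was close at 4365 CPM with 14.6 CPM of Arc. Whether depth or central tissue bears on the Arc level was not tested.

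**Figure D3:**
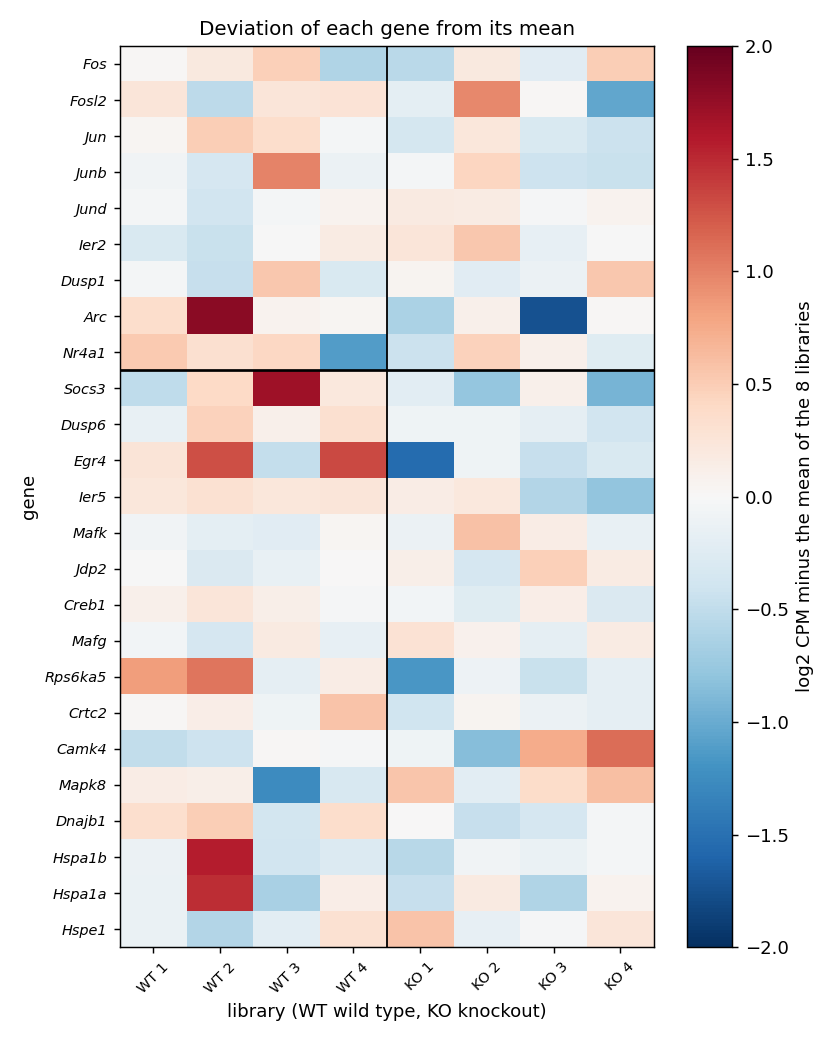
Log2 CPM of the 9 genes (above the black line) and of the named genes of related lists (below it) as the difference from each gene's mean over the 8 libraries, which form the columns; red is above and blue below the mean. Arc, Hspa1a and Hspa1b are high together in wild type library 2, and Junb and Socs3 in wild type library 3.

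Across libraries the 9 genes did not rise and fall as a block. Among their 36 pairs, 23 had a positive and 13 a negative Pearson's r of log2 CPM over the 8 libraries, from -0.63 to 0.84, with a median of 0.22. The same count over pairs of all genes was not made. Jund and Ier2 went together most closely (r = 0.84, Spearman's rho = 0.95, exact permutation p = 0.00732 and 0.00114). Without the 2 libraries farthest from the median of Jund their r was 0.91, and 0.85 without the 2 farthest in Ier2. Jun and Arc followed (r = 0.71, rho = 0.81, exact permutation p = 0.0346 and 0.0218, and r = 0.72 without the 2 libraries farthest in Jun or 0.54 without the 2 farthest in Arc). No other pair had an exact permutation p under 0.05, and after adjustment over the 15109 genes set against each anchor gene no pair passed (smallest adjusted p = 0.245, for Arc with Jun as the anchor). All pairs share the same 8 libraries and their scaling, and the 2 genotypes were pooled. Jun and Arc both had negative log2 fold changes (-0.42 and -1.18), and Jund and Ier2 positive ones (0.19 and 0.31). The part of these genotype differences in r was not tested, as deviations from the genotype means were used only for pairs with Fos.

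With Fos as the reference, the highest r were those of Nr4a1 (r = 0.67, rho = 0.48, exact permutation p = 0.0667 and 0.243, adjusted p = 0.947) and Dusp1 (r = 0.52, rho = 0.48, exact permutation p = 0.188 and 0.243, adjusted p = 0.947). The relation with Nr4a1 rested on the libraries lowest in Fos: without wild type library 4 and knockout library 1 its r was -0.21, while that of Dusp1 was 0.65. Both libraries had 0 counts of Xist, the gene used here for sex class, as had knockout library 2. The part of sex class in this relation was not tested. Jun, Arc and Junb had r of 0.38, 0.39 and 0.32 with Fos, and Fosl2, Ier2 and Jund had r of -0.20, -0.20 and -0.31. The median over these 8 genes was 0.35, beside -0.02 for all genes with Fos, and it fell to 0.059 without wild type library 3. Of 48 other immediate early genes, 29 had a positive r with Fos, the highest being that of Csrnp1 (0.80). Their median was 0.16, beside -0.02 for all genes.

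**Figure D4:**
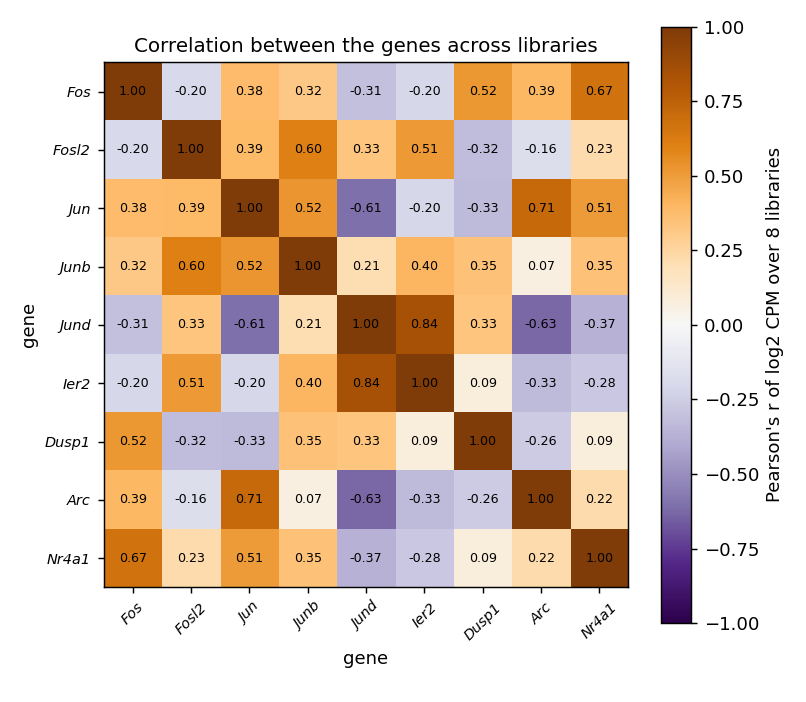
Pearson's r of log2 CPM over the 8 libraries for each pair of the 9 genes, printed in the cells and coloured from -1 (purple) to 1 (orange). Jund with Ier2 (0.84) and Jun with Arc (0.71) are the highest pairs, and Jund with Arc (-0.63) the lowest.

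The genes outside the list whose pattern was most like that of Fos over the 8 libraries, among genes of at least 1 CPM on average, were Cd6 (r = 0.98), Lrrn3 (r = 0.96), Mmab (r = 0.96), Frem1 (r = 0.94), Mios (r = 0.94), Mpp2 (r = 0.94), Ppp2r2a (r = 0.93) and Fam83h (r = 0.92). Of these, Cd6 and Frem1 lay near the floor, at 0 to 2.71 CPM and 0.244 to 2.71 CPM over the 8 libraries. None of the genes is among the immediate early or related genes listed here. They were picked as the highest of 15109 values, and the adjusted p of each was 0.947 by the exact permutation test of r. Without the 2 libraries lowest in Fos their r ran from 0.71 for Fam83h to 0.95 for Ppp2r2a. Spearman's rho ran from 0.88 to 0.95 over the 8, with unadjusted exact permutation p of 0.00129 to 0.00724. Because the genes were chosen by r in these same libraries, these values are no independent test.

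Other immediate early genes gave the same lack of calls. Of 50 listed, 48 were measured, 17 with positive and 31 with negative log2 fold changes (all genes: 51.3% and 48.7%). Of the 48, 0 were called by edgeR (smallest adjusted p = 0.924), against 0.00662% of all genes. Their median log2 fold change was -0.07, against 0.01 over all genes. At an unadjusted p under 0.05, 0 were higher and 1 lower, beside 1.94% and 2.90% of all genes. That 1 was Socs3 (log2 fold change -1.07 ± 0.45, SE), with the high library described above. Ier5, a regulator of the heat shock factor, was the 1 gene of the list whose groups did not overlap, where 1.41% of all genes were lower without overlap. It stood at 25.8, 27.3, 25.7 and 26.1 CPM in wild type and at 24.5, 25.7, 14.7 and 12.8 CPM in knockout ganglia (log2 fold change -0.43 ± 0.25, SE). Knockout library 2 (25.65 CPM) was only just below wild type library 3 (25.74 CPM), and knockout libraries 3 and 4 were the low ones. Dusp6, a phosphatase for ERK, differed by -0.38 ± 0.18 (SE) on the log2 scale and Egr4 itself by -1.27 ± 0.65 (SE). Egr4, the gene removed, is counted among the 48 and the 31 negative ones. It too was uncalled (edgeR's adjusted p = 0.924), and a lack of calls does not show a lack of change.

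In these 48 genes, libraries of both genotypes were among those most often highest and lowest. Knockout library 2 was the highest of the 8 libraries in 15 of them and wild type library 3 in 14, where these libraries were highest in 15% and 14.3% of all genes. Knockout library 4 was the lowest in 15 and wild type library 4 in 12, beside 16.8% and 14.7% of all genes. Knockout library 2 held the most vessel RNA, and its part in this count was not tested. Among the 9 genes themselves, no library was highest in more than 2. Their summed level ran from 402 to 531 CPM in wild type and from 400.3 to 491 CPM in knockout ganglia, with Jund as 29.9% to 43.9% of the sum.

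Proteins that pair with AP-1 subunits or act upstream of them showed no called difference either. Of 23 measured basic leucine zipper genes beyond the list, 9 had positive and 14 negative log2 fold changes (all genes: 51.3% and 48.7%). Of these 23, 0 had an unadjusted p under 0.05, against 4.84% of all genes. Their smallest p belonged to Mafk, a small Maf protein (0.26 ± 0.21, SE), Jdp2, a repressor that pairs with Jun (0.24 ± 0.20), Creb1, the factor of the cyclic AMP response element (-0.22 ± 0.19), and Mafg (0.18 ± 0.17), all as log2 fold changes. Mafk shares 168 exon bases and Jdp2 87 with a gene on the other strand. Of 31 MAP kinase and regulator genes, 13 had positive and 18 negative log2 fold changes (all genes: 51.3% and 48.7%). At an unadjusted p under 0.05 there was 1 of the 31, beside 4.84% of all genes. This was Rps6ka5, a kinase that phosphorylates Creb1 and histone H3 at such genes. It stood at 12.9, 15.3, 6.43 and 8.02 CPM in wild type and at 3.24, 6.79, 5.35 and 6.38 CPM in knockout ganglia (log2 fold change -0.97 ± 0.37, SE; edgeR's adjusted p = 0.924). It shares 179 exon bases with Gm49703. Wild type library 3 lay below knockout library 2, so the groups overlapped. The other named genes of that list were Crtc2, a Creb coactivator (-0.34 ± 0.19), Camk4, which shares 189 exon bases with a gene on the other strand (0.63 ± 0.39), and Mapk8, which encodes the Jun kinase JNK1 (0.59 ± 0.37).

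Of 17 heat shock genes, 7 had positive and 10 negative log2 fold changes (all genes: 51.3% and 48.7%). Of these 17, 0 had an unadjusted p under 0.05, against 4.84% of all genes. Their median log2 fold change was -0.01. The smallest p was that of the cochaperone Dnajb1 (log2 fold change -0.43 ± 0.20, SE). It stood at 112, 125, 68.8 and 114 CPM in wild type and at 89.2, 64.5, 70.1 and 86.7 CPM in knockout ganglia. Hspa1b and Hspa1a followed at -0.64 ± 0.43 and -0.61 ± 0.43 (SE), and Hspe1, which shares 96 exon bases with Hspd1, at 0.31 ± 0.22.

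**Figure D5:**
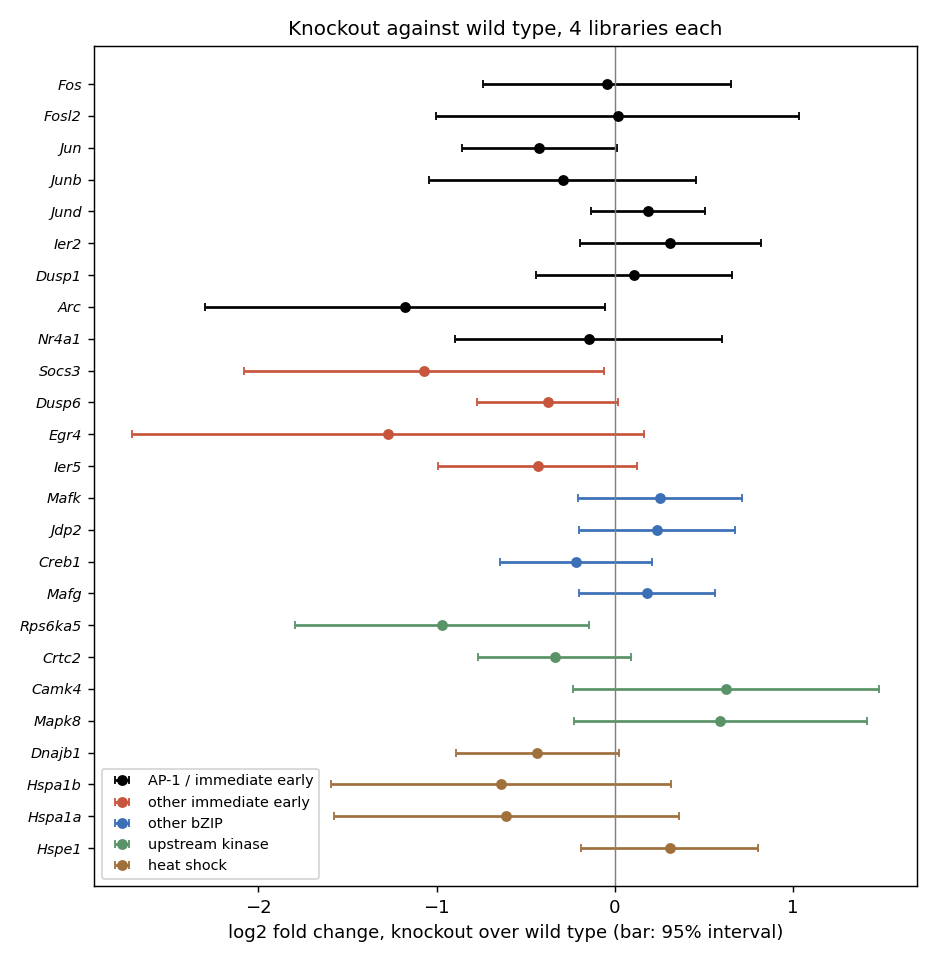
Log2 fold change of knockout over wild type with its 95% interval for the 9 genes (black) and the named genes of 4 related lists (colours), from edgeR's quasi-likelihood fit over all genes. The intervals of Arc, Socs3 and Rps6ka5 exclude 0 before adjustment, and no gene shown passes the adjusted test.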

How the data were processed

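RNA of 8 whole ganglia was sequenced as read pairs of 150 bp after SMART-Seq v4 and Nextera XT library preparation from 1 ng, per the labels' protocols, which describe no strand marking or molecular identifiers. FastQC 0.11.5, STAR 2.5, featureCounts of Subread 1.5.1, edgeR 3.12.1 and build mm10 are named in the submitters' processing notes. The authors deposited raw counts per gene and log2 FPKM values, with their own fold change, log2 fold change, p-value and false discovery rate. Genes filtered out before deposit were not analysed here.

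Counts were scaled by TMM and tested over all 15110 genes with edgeR 4.0.16 in R 4.3.3 (robust quasi-likelihood F-test, genotype only, two-sided, Benjamini-Hochberg), after a filterByExpr filter that removed 0 genes. SE is the log2 fold change over the square root of F. Permutation tests used log2 CPM with a prior count of 2, with 70 arrangements for genotypes and 40320 orderings for correlations. Deposited log2 FPKM of the 9 genes differed from values recomputed from counts by at most 0.0297. Alternatives included DESeq2 1.42.0 and limma-voom (limma 3.58.1). The main edgeR fit alone was also run on simulated counts with planted changes larger than those of the 9 genes, which does not test for changes of their size. Named were all members, the 4 smallest p of each of 4 related lists, and the 8 genes most correlated with Fos, leaving out predicted genes. Of the 10 marker lists, summed levels of wild type and knockout ganglia were 25842 to 41376 and 15039 to 33252 CPM for Schwann cells (9 of 10 genes with negative log2 fold changes), 10643 to 18381 and 9321 to 14923 CPM for satellite glia (7 of 8 negative), 4274 to 7739 and 4195 to 6427 CPM for fibroblasts, and 10488 to 31270 and 24808 to 93734 CPM for choroid plexus and meninges (7 of 8 positive). None of these genes was called, and their part in the results was not tested. The members and lists were chosen with earlier results of these data known. Replicates are separate mice. No libraries of a genotype agreed within counting noise (chi-square over its degrees of freedom at least 124).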

Additional observations from a re-analysis of the deposited data

Results flagged for a closer look

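Of 66 groups of 4 values (the 9 genes, the named genes of the related lists and the 8 genes most like Fos, in each genotype), 5 had 1 library standing well away, and about 3.3 would by chance. Its distance from the closest library, divided by the group's range, was 0.902 for Arc and 0.928 for Hspa1b, both with wild type library 2 highest. It was 0.95 for Fosl2, with wild type library 2 lowest at 3.04 CPM against 5.18 CPM or more. It was 0.871 for Junb, with wild type library 3 highest, and 0.84 for Jun, with knockout library 2 highest at 79.3 CPM against 54.9 CPM or less.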

How the results depend on the processing

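In all 20 alternative fits 0 of the 9 genes were called, with a smallest adjusted p from 0.380 to 1.000 between fits. The alternative without a filter repeats the main fit, as the filter removed 0 genes. The number of all genes called was 1. It was 0 with RLE factors, library size alone, sex class (Xist detected or not) as a covariate, without library 4 of both genotypes and without knockout libraries 2 and 4 (the last 2 chosen after seeing the data), 10 with the likelihood ratio test and 14 with DESeq2, and 0 to 1 when 1 library was left out. Deviations of same-numbered libraries correlated weakly (0.004 to 0.149), and replicate numbers were not used as pairs in the main fit. Wild type libraries 1 and 2 correlated best with the knockout library of their own number, and wild type libraries 3 and 4 did not. With replicate numbers as a block, 2 genes were called and 1452 had an unadjusted p under 0.05, against 731. In edgeR's fit with that block, the unadjusted p was 0.00746 for Jun (adjusted p = 0.380) and 0.0157 for Arc (adjusted p = 0.428).

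The log2 fold changes of Jun, Jund, Ier2 and Arc kept their sign in all 20 fits, Jun between -0.60 and -0.32, Jund between 0.10 and 0.25, Ier2 between 0.16 and 0.48 and Arc between -1.87 and -0.55. That of Fosl2 was -0.028 with library size alone, -0.16 with limma-voom, -0.14 with the replicate block, -0.21 with sex class and -0.19 without knockout libraries 2 and 4. With sex class Fos stood at 0.12 and Nr4a1 at 0.076. Xist was detected in wild type libraries 1, 2 and 3 and in knockout libraries 3 and 4, so the classes were not balanced between genotypes. Dusp1 stood at -0.17 without library 4 of both genotypes and -0.021 without knockout libraries 2 and 4. Leaving out 1 library gave -0.23 to 0.12 for Fos (-0.41 and -0.45 without those 2 pairs of libraries), -0.41 to -0.0038 for Nr4a1, -0.44 to 0.26 for Fosl2, -0.51 to 0.097 for Junb and -0.078 to 0.35 for Dusp1.

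The median r with Fos was 0.059 to 0.39 with 1 library left out, that of Junb -0.11 to 0.60 and that of Fosl2 -0.43 to 0.20. Without the 2 libraries farthest from the median of Fos, r was 0.099 for Jund, 0.24 for Ier2 and -0.21 for Nr4a1. The cause was not tested.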
